A study of Mus musculus with 2 samples.

Results

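The MHC class I genes of the mouse, their light chain and their peptide transporter were examined in small-intestinal crypts with and without Lpcat3. Members were all probe sets whose annotated symbol field, also where it lists several genes, holds H2-K1, H2-D1, H2-Q10, H2-Q7, H2-T10, H2-T23, H2-T3, B2m, Tap1 or Tap2. These 10 genes, of 19324 named on the array, were read by 32 of its 45101 probe sets, 23 with 1 symbol and 9 with several. Crypt RNA came from the small intestine of mice aged 8 to 10 weeks. The control mice carried floxed alleles of Lpcat3, an acyltransferase that puts polyunsaturated fatty acids into membrane phospholipids (Lpcat3 F/F). The knockout mice carried the same alleles and Villin-CreERT2, a Cre recombinase that needs tamoxifen and is driven by the Villin promoter in the intestinal epithelium. Both groups received tamoxifen, at 1 mg per mouse and day over 5 days, with crypts isolated after a further 2 weeks. Each group gave 1 pool, made from RNA of 5 mice, and each pool was read on 1 array, so the values below carry no spread between mice and no test of genotype was made. Effects of the deletion, the Cre transgene, the mice pooled, the preparation of crypts and RNA, and the hybridisation cannot be told apart.

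Class I molecules present peptides from inside the cell to CD8 T cells. A heavy chain pairs with beta-2 microglobulin, the product of B2m, and the transporter formed by Tap1 and Tap2 brings peptides, cut by the proteasome, into the endoplasmic reticulum, where tapasin and chaperones load them. H2-K1 and H2-D1 are classical heavy chains found on nearly all nucleated cells, while the H2-Q, H2-T and H2-M genes are non-classical, less variable and often read by lymphocytes with restricted receptors. The gut epithelium is known for its intraepithelial lymphocytes, which meet several of these ligands.

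Lpcat3 itself, read by 1 probe set, stood at 4691 in control and 928 in knockout (log2 ratio -2.34). The sources used here do not say where that probe set lies relative to the floxed exons. Signals are MAS5 intensities in arbitrary units, and a ratio is always the log2 of knockout over control. Values under a floor of 92.9, the median of all signals, were raised to it, so a gene under it on 1 array has a bound, written "at least". The ratios of different probe sets of 1 gene had an SD of 0.28 (4582 genes), which stands for the probe error only. Crypt epithelial markers were bright on both arrays, among them Epcam with 25413 in control and 25300 in knockout, and none of the 10 was under the floor.

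Most class I probe sets lay near the same level in both pools, and the 6 exceptions were 3 probe sets of non-classical genes and 3 of the classical ones. Of the 32, 24 reached the floor in 1 pool or both, and 8 were under it in both. Among the 24, 2 were higher in knockout by 1.5-fold or more (8.33%) and 4 were lower by as much (16.7%), while 18 lay within 1.5-fold. Past the same fold were 5.3% (higher) and 8.22% (lower) of all 24011 probe sets measured. The called probe sets of the whole array were thus 39.2% higher ones, a share that was 49.8% after quantile normalisation and 47.9% after lowess. The median ratio of the 24 was -0.14, against -0.037 over all probe sets. At 2-fold, 1 member probe set was higher and 2 were lower, where 1.21% and 1.93% of all measured probe sets were. These counts were 2 and 1 after quantile normalisation and 2 and 2 after lowess, since the ratios of H2-D1 1452544_x_at (1.00) and H2-T23 1419658_at (-1.02) lie at the 2-fold line.

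**Figure D1:**
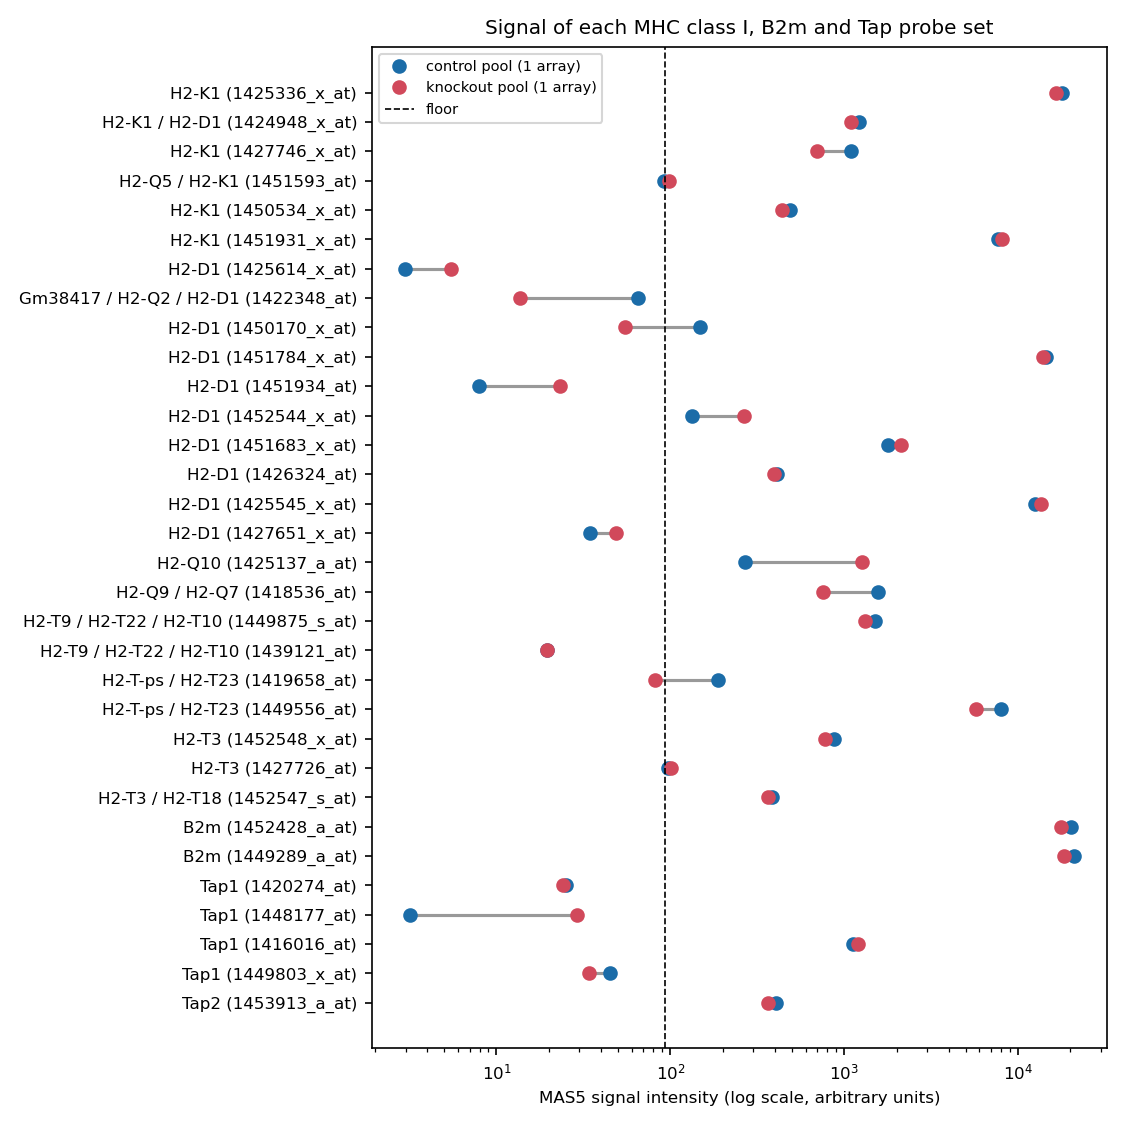
MAS5 signal (log axis, arbitrary units) of all 32 probe sets on the control array (blue) and the knockout array (red), 1 array per group, with the floor of 92.9 as a dashed line. H2-Q10 shows the widest gap among those over the floor in both pools (269 against 1274), and 8 probe sets lie under the floor on both.

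The classical heavy chain H2-K1 was close to even between the pools. Its probe set 1425336_x_at read 17912 in control and 16457 in knockout, a ratio of -0.12. A second one, 1451931_x_at, read 7639 and 8103, a ratio of 0.085. These differ in sign and both lie within the probe error. Probe set 1450534_x_at gave 488 and 439 (-0.16). By contrast 1427746_x_at gave 1095 and 700, which is 1.56-fold lower in the knockout pool and the only one of the 6 H2-K1 probe sets past 1.5-fold. The other two list a further gene. One is shared with H2-D1 (1424948_x_at, 1222 against 1100, ratio -0.15), and the other with H2-Q5, where the control signal of 91.9 lay just under the floor and the knockout signal was 98.7.

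H2-D1, the other classical heavy chain, has 11 probe sets, of which 4 were under the floor on both arrays. The probe set 1451784_x_at read 14572 in control and 13890 in knockout (ratio -0.069), and 1425545_x_at read 12588 and 13509 (0.10). Both stayed within the probe error, as did 1426324_at with 413 and 396 (-0.061, and 0.023 after quantile normalisation). At 1782 against 2122, 1451683_x_at was 1.19-fold higher in the knockout pool. The dim probe sets went opposite ways: 1452544_x_at read 134 in control and 267 in knockout, a ratio of 1.00, whereas 1450170_x_at read 148 and 55.1, at least 1.59-fold lower. Class I heavy chains are highly alike and vary between mouse strains, and 12 of the 16 classical probe sets carry the suffix _x_at, which marks probes that can bind other transcripts. Their signals may therefore hold RNA of several class I genes, and the sources used here do not name the strain. Over the 12 classical probe sets measured, the median ratio was -0.065.

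The non-classical genes differed most among themselves. H2-Q10, a heavy chain that lacks a membrane anchor and is known as a secreted protein of the liver, read 269 in control against 1274 in knockout. That is 4.73-fold higher (ratio 2.24), above 99.9% of all measured probe sets. It rests on 1 probe set, 1425137_a_at, so no second reading of the gene exists here. Ratios were 2.31 after both quantile normalisation and lowess, and 1.92 with a pseudocount in place of the floor. Of the blood and hepatocyte markers, Alb was under the floor on both arrays (68.4 and 30.6), Apoa2 was at -0.23 and the brightest probe set of Ttr at -0.27. Globin probe sets that list several genes were higher where measured. They gave 1.33 and 0.56 for Hba-a2 with Hba-a1, and 0.42 for the beta globins, while others of Hba-a1 were under the floor on both arrays. Markers of B and plasma cells were higher in knockout too: 6 of the 7 measured, on a list of 8, were past 1.5-fold, against 4.76% of all genes measured. Their summed signal was 1485 in control and 5212 in knockout. Whether any of these blood, hepatocyte or B cell markers bear on the H2-Q10 signal was not tested.

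The probe set for H2-Q7, which encodes the Qa-2 antigen, lists H2-Q9 as well and cannot separate them. It read 1569 in control against 755 in knockout, 2.08-fold lower (ratio -1.06). Thus the H2-Q10 probe set and that of H2-Q9 and H2-Q7, which belong to the same gene cluster, stood on opposite sides. Of the Q-region genes outside the member list, H2-Q2 was at 5901 and 5912 (ratio 0.0026), and the probe set that lists H2-Q6 and H2-Q8 was at 649 and 484 (-0.43).

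H2-T23 encodes the heavy chain of Qa-1, the ligand of the CD94 and NKG2 receptors of natural killer and T cells. Both of its probe sets also list H2-T-ps, and both were lower in the knockout pool. Probe set 1449556_at read 8006 in control and 5731 in knockout (1.40-fold lower, ratio -0.48). The dimmer 1419658_at read 189 and 82.1, at least 2.03-fold lower. Klrd1, which encodes CD94 itself, read 1615 in control against 174 in knockout. H2-T3, which encodes the thymus leukaemia antigen that binds CD8 alpha homodimers on intraepithelial lymphocytes, showed no such difference. Its probe set 1452548_x_at read 874 and 775 (-0.17), 1427726_at read 97.2 and 100.4 (0.047), and the one shared with H2-T18 read 382 and 367 (-0.058, turning to 0.029 after quantile normalisation). H2-T10 shares its probe sets with H2-T9 and H2-T22, ligands of gamma delta T cells. One read 1508 and 1315 (-0.20), and the other was under the floor on both arrays.

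**Figure D2:**
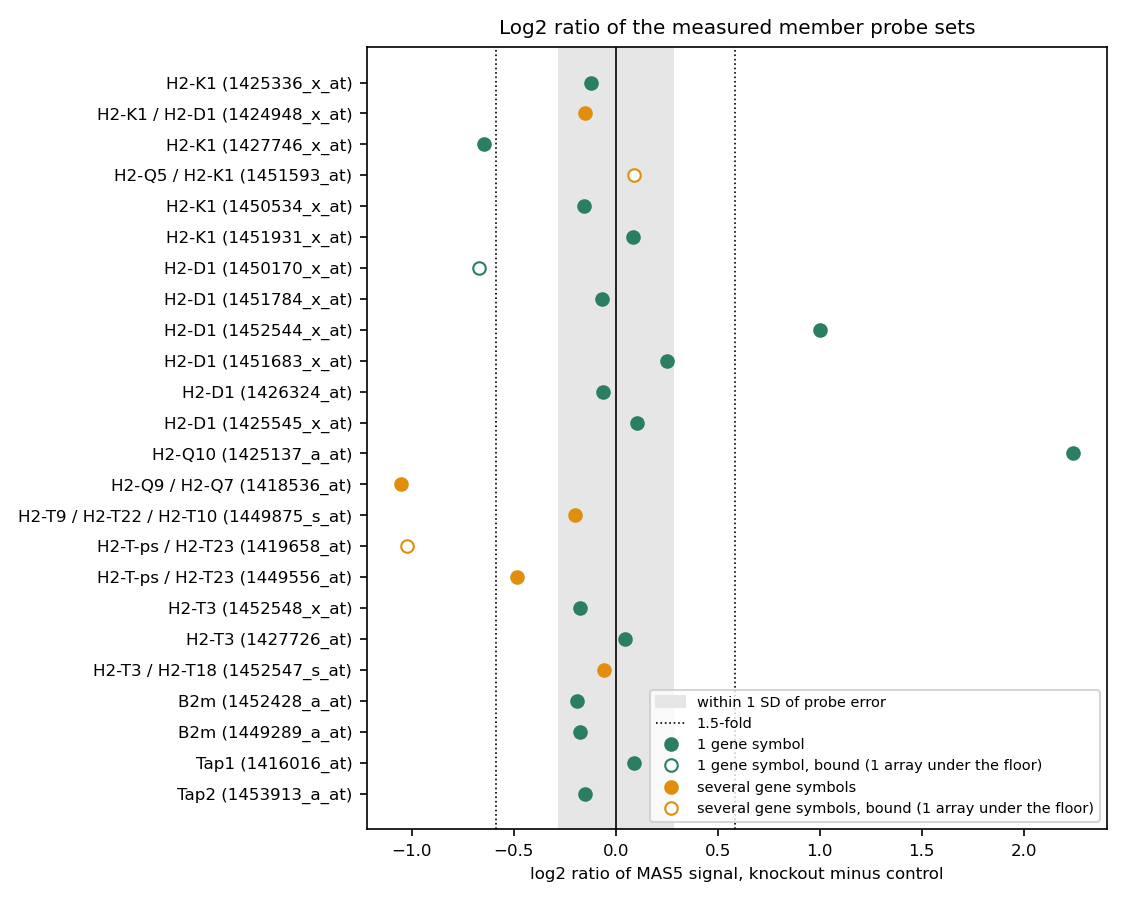
Log2 ratio (knockout minus control) of the 24 measured probe sets, coloured by whether 1 or several genes are annotated, with open circles for bounds, a grey band of 1 SD of probe error (0.28) and dotted lines at 1.5-fold. H2-Q10 stands at 2.24 on the right, H2-Q9 / H2-Q7 and a H2-T-ps / H2-T23 probe set stand near -1 on the left, and 17 of the 24 lie inside the grey band.

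B2m, the light chain needed by all these heavy chains, was read by 2 probe sets that gave nearly the same ratio. One read 20860 in control and 18468 in knockout (-0.18), and the other 20108 and 17635 (-0.19). Both are within the probe error. Tap1 read 1125 and 1196 by its 1 probe set above the floor (0.088), with its 3 others under it on both arrays. Tap2 read 407 in control and 367 in knockout (-0.15). Neither transporter subunit reached 1.5-fold.

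Promoters of H2-Q10 and H2-Q7 are shown because their probe sets stood on opposite sides in these pools. The H2-Q7 probe set also lists H2-Q9. H2-K1 and H2-D1, where most measured probe sets were close to even, are shown beside them. Whether these sequences bear on the signals was not tested. Sequences are from RefSeq (GRCm38.p6), where 8 of the 10 member genes had a promoter window of 300 bases and H2-T10 and Tap2 had none. Windows of 80 bases upstream of the annotated start follow. In H2-K1 and H2-D1 the first capitals mark GGGGATTCCCC, the element of enhancer A, which NF-kB proteins can bind. In H2-Q7 they mark its first 10 bases only, and in H2-Q10 the aligned stretch, which carries 2 substitutions. The second capitals mark the core of the interferon response element next to it.
H2-K1 (chr17:34000402-34000481, minus strand): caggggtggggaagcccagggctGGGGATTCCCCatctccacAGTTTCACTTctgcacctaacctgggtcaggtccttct
H2-D1 (chr17:35262900-35262979, plus strand): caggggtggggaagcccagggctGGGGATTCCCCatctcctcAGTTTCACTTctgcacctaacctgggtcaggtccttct
H2-Q7 (chr17:35438998-35439077, plus strand): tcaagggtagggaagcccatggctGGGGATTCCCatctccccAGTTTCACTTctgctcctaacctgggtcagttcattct
H2-Q10 (chr17:35469890-35469969, plus strand): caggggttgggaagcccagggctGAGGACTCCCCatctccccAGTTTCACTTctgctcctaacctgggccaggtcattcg

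The windows of H2-K1 and H2-D1 differed at 1 of 80 bases, and that of H2-Q10 differed from each of them at 8. Counted from 1 at the 5′ end of the element GGGGATTCCCC, H2-Q10 carries G2A and T6C. H2-Q7 matches the first 10 bases, in capitals above, and has 18 bases from the start of the element to the start of the interferon response core, 1 fewer than the 19 of H2-K1. The letters of GGGGATTCCCC, AGTTTCACTT and CCAATCAG were read from the H2-K1 promoter, so the matches of H2-K1 were fixed in advance. Matches of H2-D1, whose window is nearly the same, are not independent of this choice. The shares of all genes below tell how common the letters are and do not test the members. On either strand, GGGGATTCCCC was present in the promoter windows of 9 of 27025 genes (0.0333%), among them H2-K1 and H2-D1. The interferon response core AGTTTCACTT was present in 45 genes (0.167%), among them H2-K1, H2-D1, H2-Q7, H2-Q10 and H2-T3. The CCAAT box with its flank, CCAATCAG, was found in 4.7% of all genes and in 5 of the 8 members, which were H2-K1, H2-D1, H2-Q7, H2-T23 and Tap1. Another 5 of the 8 (H2-K1, H2-D1, H2-Q7, B2m and Tap1) held TGACG, the core of a cyclic AMP response element, as did 6228 of the 27025 genes. A match describes letters only and says nothing of binding in these crypts.

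Genes that act before and around the heavy chain were read next, each by its brightest probe set with 1 symbol. Of 63 genes on 4 lists, 40 were measured, none was higher in knockout by 1.5-fold or more and 2 were lower by as much, with a median ratio of -0.13. Over all 11496 genes measured, 4.76% were past that fold upwards and 8.74% downwards, and the median was -0.042. The 4 lists gave 0% and 5% of their 40 measured genes, a gap of few genes that was not tested. The genes that passed 1.5-fold were Psmb8 and Tapbp.

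Psmb8, the immunoproteasome subunit that replaces Psmb5 in cells under interferon gamma and in lymphocytes, read 3433 in control against 1468 in knockout. That is 2.34-fold lower (ratio -1.23), and its dimmer probe set had a bound of -0.44. Psmb9, another immunoproteasome subunit, read 3119 and 2123 (-0.56), just short of 1.5-fold, and Psmb10 read 7062 and 6113 (-0.21). Their constitutive counterparts did not share this direction: Psmb5 was at 0.0042, Psmb6 at 0.21 and Psmb7 at 0.33. The activator genes were mixed. Psme3 was at 0.33 (0.019 by a second probe set), Psme4 at 0.043 by its brightest probe set and Psme1 at -0.14. The probe set that lists Psme2b and Psme2 was at -0.16. Over the 9 proteasome genes measured of 10 the median was 0.0042.

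Psmb9, Tap1, Psmb8 and Tap2 are neighbours in that order, and their ratios were uneven, at -0.56, 0.088, -1.23 and -0.15. Psmb9 and Tap1 are transcribed away from each other from a shared promoter region, and their RefSeq promoter windows overlap by 275 of 300 bases. The 225 bases between both starts are shown on the strand of Tap1, with CCAATCAG and TGACG in capitals, because these genes share the sequence and differed in ratio by more than the probe error.
Psmb9-Tap1 (chr17:34187331-34187555, plus strand): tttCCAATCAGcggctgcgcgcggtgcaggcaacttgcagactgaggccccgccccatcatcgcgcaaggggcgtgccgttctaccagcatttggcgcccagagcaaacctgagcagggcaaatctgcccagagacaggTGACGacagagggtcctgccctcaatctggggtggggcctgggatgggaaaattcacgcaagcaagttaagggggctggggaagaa

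In the loading complex, Tapbp, which encodes tapasin and bridges the transporter to the heavy chain, read 4831 in control and 3128 in knockout, 1.54-fold lower (-0.63). Its second probe set gave the same ratio, -0.63, from 258 and 167. Tapbpl, a tapasin-related peptide editor, was at -0.50 and Erap1, which trims peptides, at -0.20. The general folding genes Calr (0.31) and Hspa5 (0.24) were slightly higher, and the brightest probe set of Canx gave 0.19 where others gave -0.14 and -0.30. The median of the 9 genes was 0.074, and 8 lay within 1.5-fold.

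None of the 16 regulators measured reached 1.5-fold. Of these, 13 were lower, and their median was -0.20. Of all 11496 genes measured, 6337 were lower, with a median of -0.042. Lowest were Irf1, an interferon-induced activator of class I genes, with 3759 in control and 2620 in knockout (-0.52), and Nlrc5, the transactivator of class I promoters, with 352 and 247 (-0.51). With the floor at the 70th percentile, Nlrc5 had only a bound of -0.15. The brightest probe set of Nfyb gave -0.44 and its other one 0.47. Rfxank (0.19), Irf8 (0.084) and Nfyc (0.060) were highest by their brightest probe sets. A second Irf8 probe set gave 0.53, and the others of Rfxank gave 0.21 and a bound of 0.51.

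Other class I and class I-like genes showed little difference. Beside H2-Q2, the measured ones were Hfe, a regulator of iron uptake (0.13), H2-Bl (0.12), H2-M3, which presents formylated peptides (-0.16), the IgG receptor gene Fcgrt (-0.24), and Cd1d1, which presents lipids to natural killer T cells (-0.30, from 168 and 136). All 6 lay within 1.5-fold. A further 7 were under the floor on both arrays, among them Mr1, and 13 of the 26 had no probe set of their own.

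Class II genes, read by gene and not by probe set, gave a different picture in the same pools. Of 10 measured, 6 were lower by 1.5-fold or more and none was higher, with a median of -0.85, against 8.74% of all genes lower. H2-Ab1 was at -1.60, Cd74, the invariant chain, at -1.48, H2-Aa and H2-Eb1 at -1.23 each, H2-DMa at -0.94, and Ciita, the class II transactivator, was at least 1.70-fold lower. A second H2-DMa probe set had a bound of 0.79 in the other direction. Ctss (-0.21) and Ifi30 (-0.024), which act in the endosome, and H2-Eb2 (-0.38) were the highest members. Read by the brightest probe set of each gene, shared ones included, the 10 class I members had a median of -0.16. Of these 10, 1 was past 1.5-fold upwards and 1 downwards, against 4.76% and 8.74% of all genes. The difference between class I and class II was not tested, since each group is 1 array.

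**Figure D3:**
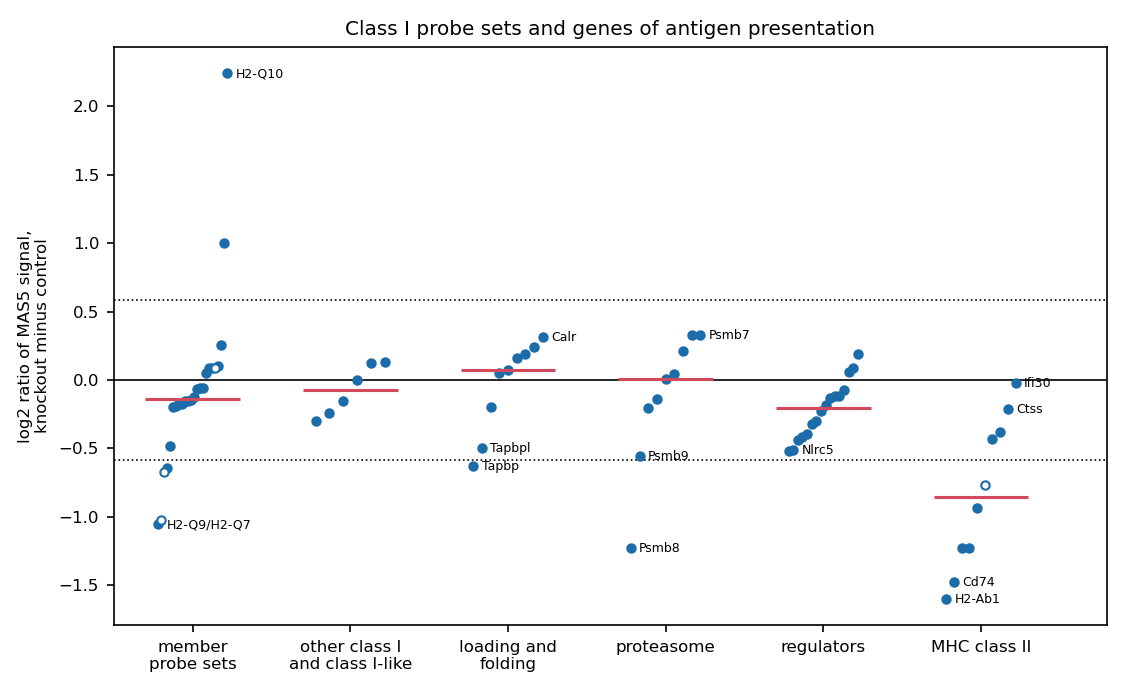
Log2 ratio (knockout minus control) of the 24 member probe sets and of the measured genes on 5 lists, with a red line at each median, open circles for bounds and dotted lines at 1.5-fold. The members centre near 0 with H2-Q10 far above, Psmb8 stands apart in the proteasome list, and class II genes lie lowest (median -0.85).

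T and natural killer cell transcripts were lower in the knockout pool. B and plasma cell markers went the other way, with 6 of the 7 measured higher by 1.5-fold or more, against 4.76% of all genes. With 1 array per group, a link between these markers and the class I ratios cannot be measured. All 11 measured of 13 T and natural killer markers were lower in knockout by 1.5-fold or more, against 8.74% of all genes, with a median of -2.10 and a summed signal of 46723 in control and 10322 in knockout. Cd2 and Cd8b1 were under the floor on both arrays. The general leukocyte gene Ptprc was at -1.15. Macrophage and dendritic markers were split. Their summed signals over all 12 listed were 5384 in control and 4565 in knockout, to which Lyz2 gave 3225 and 2477. Of 10 measured, 2 were past 1.5-fold upwards, Csf1r at 2.53 (1.21 and 0.65 by its other probe sets) and C1qa at least 2.64-fold. Another 2 were past it downwards, Fcer1g at -1.90 and Tyrobp at -1.34. Over all genes, 4.76% were past that fold upwards and 8.74% downwards. Itgam and C1qc were under the floor on both arrays. Of 10 epithelial markers 9 lay within 1.5-fold (summed signal 220127 against 218304), and Olfm4 was at -0.59. Lymphocytes express class I, Tapbp and immunoproteasome genes too, and the part of these cells in the ratios of H2-Q7, H2-T23, Psmb8 and Tapbp was not tested. In bulk RNA, fewer cells of a type and less RNA per cell cannot be told apart.

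**Figure D4:**
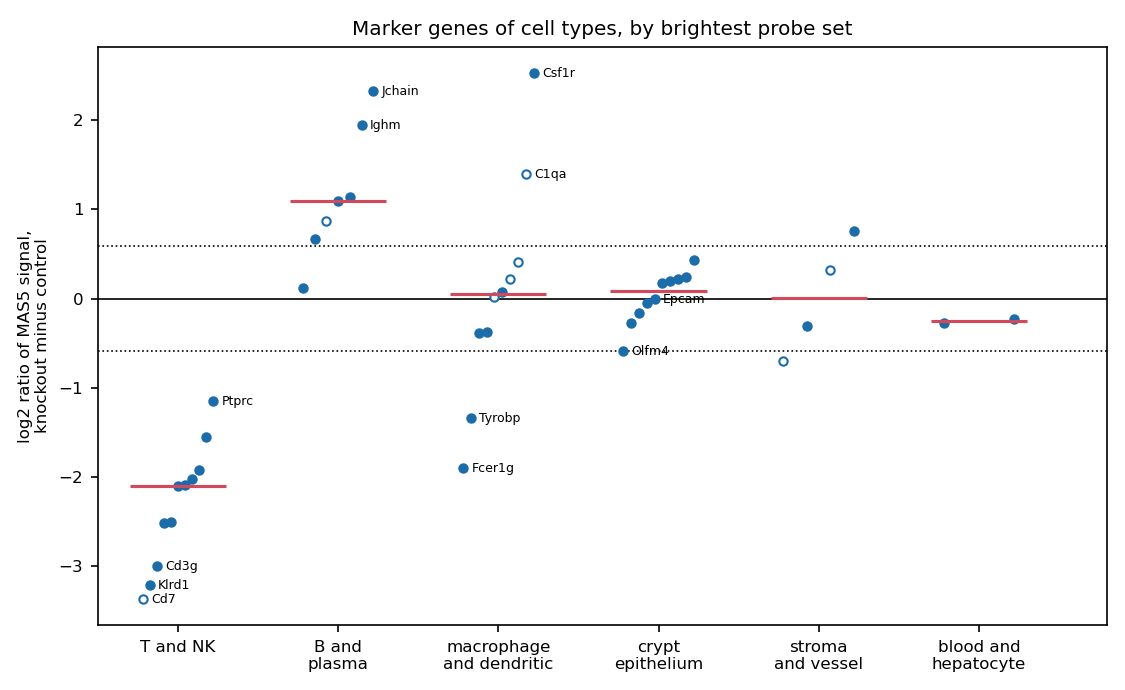
Log2 ratio (knockout minus control) of marker genes for 6 cell types, 1 point per measured gene, with a red line at each median, open circles for bounds and dotted lines at 1.5-fold. T and natural killer markers lie between -3.37 and -1.15, B and plasma cell markers between 0.12 and 2.33, and epithelial markers between -0.59 and 0.44.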

How the data were processed

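Pooled crypt RNA of 5 mice per group was hybridised to 1 Affymetrix array each. Each deposited value is a signal intensity on a linear scale, and per the submitters' processing notes MAS5 produced it (version and options: not given in the sources used here). Both columns had a mean of 500.0 with 2% trimmed from either end, and no rescaling was applied. Control probe sets (64) were left out. Symbols from the platform annotation were brought up to date by Entrez identifier with RefSeq (GRCm38.p6). The floor was the 50th percentile of all other values (92.9). Genes on lists are read by their brightest probe set with 1 symbol. Median signals were 95.4 in control and 90.5 in knockout, and precision is limited by having 1 array per group. For the probe error, ratios of a gene's 2 brightest probe sets were subtracted and the SD of these differences divided by the square root of 2. Calculations used Python 3.11.15, pandas 2.3.3 and statsmodels 0.14.6 and were tested on simulated data. Named genes are all members, Lpcat3, and of each list the genes past 1.5-fold and the 3 highest and 3 lowest. H2-Q6 and H2-Q8, H2-DMb2, Psme1, Psme2, Psme4, second probe sets and the markers given with values were chosen after values were seen. Members and lists were chosen with earlier results of these data known. Sequence windows were aligned without gaps, so a window with another spacing has no substitutions. Alternatives were quantile normalisation, lowess, other floors, a pseudocount and other choices of probe sets.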

Additional observations from a re-analysis of the deposited data

How the results depend on the processing

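No paired analysis was possible because there is only 1 array per group, which also leaves no array to omit. The median of the member probe sets stayed between -0.16 and -0.059 under all 8 alternatives run for it. The counts of members past 1.5-fold (2 higher, 4 lower) were 1 and 2 with a floor at the 70th percentile, also 1 and 2 when _s_at and _x_at probe sets were dropped, 2 and 2 with 1-symbol probe sets only, and 1 and 1 by the brightest probe set of each gene, since fewer probe sets or genes then entered. All 6 called probe sets kept their side of 1.5-fold after quantile normalisation and lowess, and 5 of the 6 with a pseudocount, where no member was 2-fold lower. Members past 2-fold (1 higher, 2 lower) numbered 2 and 1 after quantile normalisation and 2 and 2 after lowess. Signs of 2 probe sets near 0 turned under both scalings. The class II count was 4 and its median -0.47 when a gene was read by the median of its probe sets, and its median was -0.36 with the pseudocount. Probe sets near the floor, such as those of H2-D1 at 134 and 148 in control, have little signal over background.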

Other observations

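The stretch of chromosome 17 that holds the class I genes was read as a whole, by gene order in RefSeq and after the values above were seen. Between H2-K1 and H2-T3 lie 125 protein-coding genes, of which 79 were measured. Of these 79, 4 were past 1.5-fold upwards and 10 downwards in knockout, and the median ratio was -0.048. These are 5.06% and 12.7% of the 79, against 4.76% and 8.74% of all genes measured. Without the H2, Tap and Psmb genes, 63 remained, with 3 higher (4.76%), 5 lower (7.94%) and a median of 0.00094, shares near those of all genes. The 3 higher genes were the inducible heat shock genes Hspa1b (3.59) and Hspa1a (at least 4.08-fold) and the immediate early gene Ier3 (0.83). The 5 lower genes were Prrt1 (-1.52), Ddah2 (-0.91), Atat1 (-0.72), Ppp1r18 (-0.59) and Fkbpl (-0.59). Brd2 (-0.20), Tubb5 (-0.056) and Bag6 (0.00094), also in this stretch, differed by less than the probe error.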
